A study of Mus musculus with 10 samples.

Results

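The 10 genes described here are 7 matrix metalloproteinases (Mmp2, Mmp8, Mmp9, Mmp12, Mmp13, Mmp14 and Mmp19) and 3 of their tissue inhibitors (Timp1, Timp2 and Timp3). They were taken by gene symbol from the 55359 gene identifiers in the count files, and all 10 were found. The cells were macrophages carrying F4/80, a surface protein of mouse macrophages, sorted by flow cytometry from Braf-mutant melanomas in a resistant or rebound state. There were 5 libraries from Ccr2 KO mice (Ccr2RFP/RFP) and 5 from control mice (Ccr2RFP/+), all male, and both groups received Braf/Mek inhibitors every day up to collection. Ccr2 is the chemokine receptor that inflammatory monocytes use to leave the bone marrow and enter tissue, and the RFP allele disrupts the gene with a sequence for red fluorescent protein. The controls therefore also carry an RFP allele, and no library came from a mouse with 2 unaltered Ccr2 alleles. The allele is not limited to macrophages. The labels give no age, tumour line or clone, do not state whether each library is from its own animal, and call the controls wild type in their titles.

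Matrix metalloproteinases are zinc-dependent endopeptidases that cut collagens, gelatin, elastin and other proteins outside the cell. Most are secreted as inactive proenzymes, while Mmp14 is anchored in the plasma membrane. Timps block the active site of the mature enzymes, and Timp2 has a further role, since it tethers proMmp2 to Mmp14 at the cell surface so that Mmp2 can be activated. Tumour macrophages are a known source of several of these proteases and inhibitors. Messenger RNA says nothing of secretion, proenzyme cleavage or binding by an inhibitor.

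Levels are given in CPM, the counts of a gene scaled to a common library total, with library sizes scaled by TMM, a correction for library composition. Libraries held between 34639808 and 43360206 counts in genes. Ccr2 was at 3.23, 6.28, 4.33, 3.64 and 6.13 CPM in Ccr2 KO libraries 1 to 5 and at 59.0, 89.6, 142, 130.0 and 177 CPM in control libraries 1 to 5, so its level followed the genotype labels in every library. Among markers of the sorted cell, Adgre1, which encodes F4/80, was at 1836 ± 189 CPM in Ccr2 KO and 1826 ± 114 CPM in control libraries (SD, n = 5 each), and the 8 macrophage markers were detected throughout. Control libraries 1 and 2 were closer to each other than most pairs were (median chi-square over genes 2.80), as were control libraries 3 and 4 (2.71), while the next closest pair, control 3 and Ccr2 KO 2, stood at 5.43. Results are therefore also given with each control pair summed into 1 library where that changes them.

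Of the 10 members, Timp2 rose in Ccr2 KO macrophages and the other 9 did not pass the test. The test was edgeR's quasi-likelihood test on all 14374 genes that passed a filter on low counts, with a threshold of 0.05 on the Benjamini-Hochberg adjusted p. All 10 members passed the filter. The count of 1 member called of 10 stands beside a background of 1.41% of all tested genes called in either direction, 0.870% called higher and 0.543% called lower. At an unadjusted p under 0.05 there were 3 members (Timp2, Mmp8 and Mmp9), where 15.3% of all tested genes were under it. The fitted log2 fold change was negative for 6 members and positive for 4, with a median of -0.52 beside a median of -0.0034 over all tested genes.

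**Figure D1:**
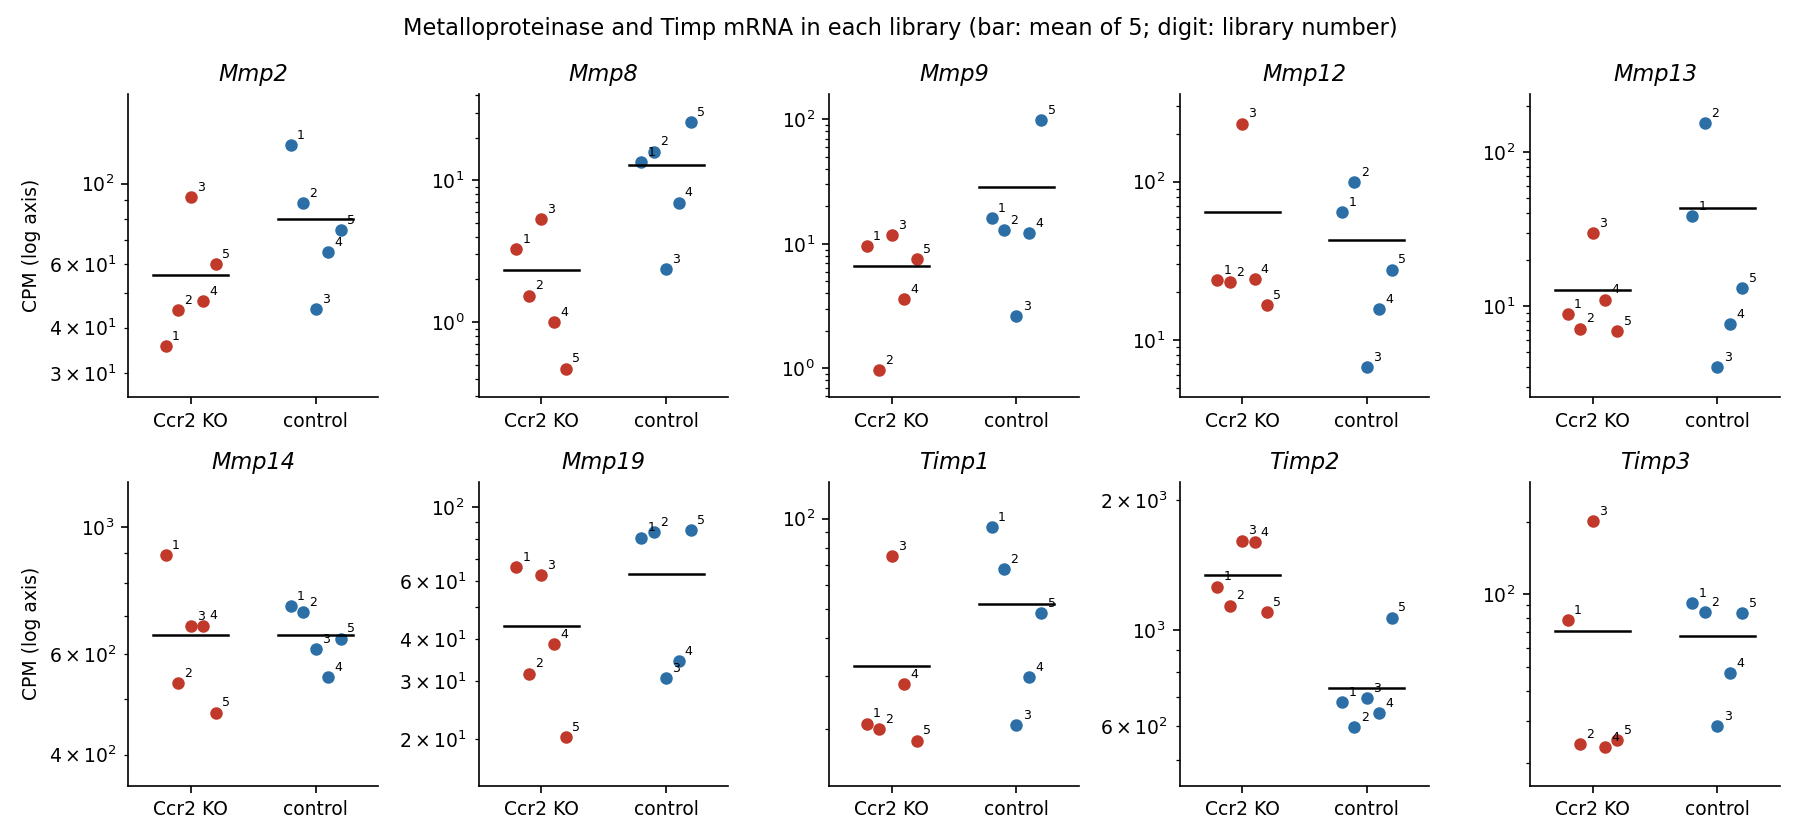
Level of each of the 10 members in every library, in CPM on a log axis, with Ccr2 KO libraries left of control libraries, 1 point per library and a bar at the group mean. Timp2 is the panel in which all 5 Ccr2 KO points lie above all 5 control points.

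Timp2 (ENSMUSG00000017466, chromosome 11), a constitutively expressed inhibitor and the partner of Mmp14 in proMmp2 activation, was at 1263, 1142, 1615, 1599.6 and 1104 CPM in Ccr2 KO libraries 1 to 5 and at 682, 597, 695, 642 and 1069.6 CPM in control libraries 1 to 5. The groups did not overlap, although control library 5 came close to the lowest Ccr2 KO library. The means were 1345 ± 247 CPM in Ccr2 KO and 737 ± 189.8 CPM in control libraries (SD, n = 5 each). The log2 fold change was 0.87 with a standard error of 0.18 and a 95% interval of 0.47 to 1.26 (edgeR adjusted p = 0.0436). Non-overlapping groups were seen for 1 of the 10 members, while 4.70% of all tested genes had them. In the GENCODE annotation Cep295nl lies inside Timp2 on the same strand, and reads that fall on exons of both genes are in neither count.

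The size of the Timp2 difference was steadier than its call. Leaving out 1 library at a time kept the log2 fold change between 0.79 and 1.05, but the adjusted p exceeded the threshold in 8 of 10 such edgeR fits. Those fits left out control library 1 (0.111), 2 (0.118), 3 (0.0967) or 4 (0.112), or Ccr2 KO library 1 (0.0734), 3 (0.0641), 4 (0.0949) or 5 (0.0603). The call held without control library 5 (0.00877) and without Ccr2 KO library 2 (0.0459). With each control pair summed, the log2 fold change was 0.77 and the edgeR adjusted p 0.284. Without Ccr2 KO libraries 4 and 5 the edgeR adjusted p was 0.143. Ccr2 KO libraries 4 and 5 were not as close to each other as the control pairs (median chi-square over genes 7.23). Ccr2 KO libraries 2 and 5 were slightly closer (7.01).

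The RefSeq promoter window of Timp2 holds no TATAAA and no TGANTCA, the binding motif of AP-1 (the Fos and Jun family), on either strand. It holds 1 GGGCGG, a GC box of the kind Sp1 binds, a motif present in 35.7% of all 32851 RefSeq windows of that length. The windows of Mmp14, Timp1 and Timp3, which did not pass the test, likewise hold a GC box and neither TATAAA nor TGANTCA. The last 120 bases before the Timp2 start lie at chr11:118355412-118355531 on the minus strand of GRCm38.p6. They are shown 5′ to 3′ with the GC box in capitals, because Timp2 is the member that passed the test.
Timp2: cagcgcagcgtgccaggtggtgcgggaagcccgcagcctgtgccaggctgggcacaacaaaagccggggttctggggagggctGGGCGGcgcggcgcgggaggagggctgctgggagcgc

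Timp1 (ENSMUSG00000001131, chromosome X), an inducible inhibitor that binds proMmp9 and inhibits Mmp14 poorly, was at 20.8, 19.9, 75.0, 28.1 and 18.2 CPM in Ccr2 KO libraries 1 to 5 and at 93.8, 68.0, 20.6, 29.7 and 48.4 CPM in control libraries 1 to 5. Ccr2 KO library 3 stood above every control library but library 1, and control library 3 lay among the low Ccr2 KO values, so the groups overlapped. Its log2 fold change was -0.68 with a 95% interval of -1.76 to 0.39 (edgeR adjusted p = 0.526). It was -1.26 without Ccr2 KO library 3 and -0.36 without control library 1 (edgeR adjusted p = 0.137 and 0.818).

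Timp3 (ENSMUSG00000020044, chromosome 10), the inhibitor that binds to the extracellular matrix, was at 78.1, 24.1, 201, 23.4 and 24.9 CPM in Ccr2 KO libraries 1 to 5 and at 92.2, 84.5, 28.6, 47.3 and 83.7 CPM in control libraries 1 to 5. The highest of all 10 was Ccr2 KO library 3, and 3 other Ccr2 KO libraries were the lowest. Between the genotypes the log2 fold change was 0.07 with a 95% interval of -1.30 to 1.43 (edgeR adjusted p = 0.971), and it was -0.84 without Ccr2 KO library 3. In the GENCODE annotation Timp3 lies within Syn3, a gene on the other strand, and the unstranded column held 56.1% of the strand-specific count.

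The membrane-anchored protease Mmp14 (ENSMUSG00000000957, chromosome 14), also called MT1-MMP, cuts fibrillar collagen and activates proMmp2. It was at 894, 534, 670.4, 673 and 474 CPM in Ccr2 KO libraries 1 to 5 and at 728, 711, 611, 547 and 638 CPM in control libraries 1 to 5. The control values lay inside the Ccr2 KO range. The means were 649 ± 162 CPM in Ccr2 KO and 647 ± 74.2 CPM in control libraries (SD, n = 5 each). The 95% interval of the log2 fold change, -0.35 to 0.36, was the narrowest of the 10 members, so a doubling or a halving of this mRNA lies outside it (edgeR adjusted p = 0.991).

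Mmp2 (ENSMUSG00000031740, chromosome 8), the gelatinase that Mmp14 and Timp2 act on, was at 35.6, 44.8, 91.7, 47.4 and 59.8 CPM in Ccr2 KO libraries 1 to 5 and at 128, 88.1, 44.9, 64.6 and 74.3 CPM in control libraries 1 to 5. Ccr2 KO library 3 was the second highest of the 10, and control library 3 was among the lowest. Between Ccr2 KO and control the log2 fold change was -0.52 with a 95% interval of -1.18 to 0.15 (edgeR adjusted p = 0.436). Leaving out control library 1 gave -0.28, and leaving out Ccr2 KO library 3 gave -0.77.

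Mmp9 (ENSMUSG00000017737, chromosome 2), the other gelatinase and a product of neutrophils as well as macrophages, was at 9.58, 0.963, 11.7, 3.62 and 7.54 CPM in Ccr2 KO libraries 1 to 5 and at 16.1, 12.9, 2.63, 12.2 and 98.5 CPM in control libraries 1 to 5. Control library 5 was far above every other library and control library 3 was the second lowest. Its fitted log2 fold change was -2.09 with a 95% interval of -4.06 to -0.13 (edgeR adjusted p = 0.298, unadjusted p = 0.0390). Without control library 5 it was -0.70.

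Mmp8 (ENSMUSG00000005800, chromosome 9), the collagenase stored in neutrophil granules, had the largest difference in size among the members. It was at 3.25, 1.54, 5.32, 1.0 and 0.470 CPM in Ccr2 KO libraries 1 to 5 and at 13.5, 15.9, 2.37, 6.96 and 25.7 CPM in control libraries 1 to 5. Control library 3 lay between the Ccr2 KO values and the other 4 control libraries lay above all of them. The log2 fold change was -2.47 with a standard error of 0.71 and a 95% interval of -4.04 to -0.90, and it did not pass the test (edgeR adjusted p = 0.126). DESeq2 on the same counts called it, with a log2 fold change of -2.46 and an adjusted p of 0.00453, in a run that called 5.70% of all tested genes.

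Markers of neutrophils were set beside Mmp8 and Mmp9, and not all of them followed these proteases. The 12 neutrophil markers summed to 211, 114, 140.0, 146 and 167 CPM in Ccr2 KO libraries 1 to 5 and to 382, 298, 163, 248 and 539.7 CPM in control libraries 1 to 5, and control library 5, the highest in both proteases, was also the highest in this sum. The largest part of the sum was Csf3r, at 110 ± 22.1 CPM in Ccr2 KO and 162 ± 15.3 CPM in control libraries (SD, n = 5 each). S100a9 was at 18.3 ± 26.4 CPM in Ccr2 KO and 65.4 ± 58.6 CPM in control libraries (SD, n = 5 each). S100a8 was at 9.87 ± 13.9 CPM in Ccr2 KO and 50.0 ± 46.0 CPM in control libraries (SD, n = 5 each). Both were highest in control library 5. The median log2 fold change of the tested neutrophil markers was -2.09. Retnlg was nearly level, at 14.4 ± 13.6 CPM in Ccr2 KO and 16.9 ± 11.6 CPM in control libraries (SD, n = 5 each). It was highest, at 37.1 CPM, in Ccr2 KO library 5, the lowest of all libraries for Mmp8. Of the 8 neutrophil markers that were tested, Cd177, a neutrophil surface protein, fell to 0.517 ± 0.487 CPM in Ccr2 KO libraries, against 7.63 ± 4.48 CPM in controls (SD, n = 5 each, edgeR adjusted p = 0.0244), and the other 7 did not pass. S100a8, S100a9, Cxcr2, Ly6g, Ltf, Ngp, Camp, Elane and Mpo were at 0 in at least 1 library and none of them was at 0 in all. The part of these markers in the protease differences was not tested, and in bulk RNA fewer cells of a type and less RNA per cell cannot be told apart.

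Mmp13 (ENSMUSG00000050578, chromosome 9), the main interstitial collagenase of the mouse, was at 8.87, 7.15, 29.7, 11.0 and 6.92 CPM in Ccr2 KO libraries 1 to 5 and at 38.5, 154, 4.0, 7.63 and 13.1 CPM in control libraries 1 to 5. Control libraries 1 and 2 and Ccr2 KO library 3 were the 3 highest, and the remaining 7 libraries of both groups overlapped. Ccr2 KO over control, the log2 fold change was -1.77 with a 95% interval of -3.76 to 0.22 (edgeR adjusted p = 0.378). Without control library 2 it was -0.31.

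Mmp12 (ENSMUSG00000049723, chromosome 9), macrophage elastase, was at 23.9, 23.2, 232, 24.1 and 16.7 CPM in Ccr2 KO libraries 1 to 5 and at 64.1, 99.3, 6.74, 15.7 and 27.8 CPM in control libraries 1 to 5. Far above any other was Ccr2 KO library 3, and the other 4 Ccr2 KO libraries were close together and inside the control range. The log2 fold change was 0.58 with a 95% interval of -1.37 to 2.53 (edgeR adjusted p = 0.791). It was -0.96 without Ccr2 KO library 3.

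Mmp12 and Mmp13 had the same 3 libraries on top, and so did Mmp2, Timp1 and Timp3. Mmp12 and Mmp13 both have a TGANTCA shortly before a RefSeq start, the arrangement known for inducible metalloproteinase promoters. The first base of the motif is at position -35 in Mmp13 and -44 in Mmp12, counted back from the start. The motif, read on both strands, occurs in 7.81% of the 32851 RefSeq windows. The 5 other members with a window (Mmp8, Mmp14, Timp1, Timp2 and Timp3) had no match, and Mmp12 has it at the second of its 2 starts and not at the first. Timp1 and Timp3 thus shared the top 3 libraries without the motif, and Mmp2 had no window. A link between motif and library pattern was not tested. The 120 bases before these starts, at chr9:7272394-7272513 for Mmp13 and chr9:7347254-7347373 for Mmp12, both on the plus strand of GRCm38.p6, are shown 5′ to 3′ with the motif in capitals, because the motif was found in these members.
Mmp13: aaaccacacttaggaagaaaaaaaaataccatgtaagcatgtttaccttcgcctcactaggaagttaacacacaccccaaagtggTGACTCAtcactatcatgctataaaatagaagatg
Mmp12: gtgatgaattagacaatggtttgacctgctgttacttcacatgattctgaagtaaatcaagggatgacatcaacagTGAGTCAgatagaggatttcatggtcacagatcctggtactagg

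Mmp19 (ENSMUSG00000025355, chromosome 10), a metalloproteinase that cuts basement membrane proteins, was at 66.1, 31.5, 62.5, 38.7 and 20.3 CPM in Ccr2 KO libraries 1 to 5 and at 81.0, 84.0, 30.5, 34.3 and 85.2 CPM in control libraries 1 to 5. Control libraries 1, 2 and 5 were above every Ccr2 KO library and control libraries 3 and 4 were among the low Ccr2 KO values. The log2 fold change was -0.52 with a 95% interval of -1.37 to 0.33 (edgeR adjusted p = 0.543), and it was -0.34 without Ccr2 KO library 5. The unstranded column held 69.9% of the strand-specific count, and here too the annotation has genes on the other strand, among them Tmem198b.

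**Figure D2:**
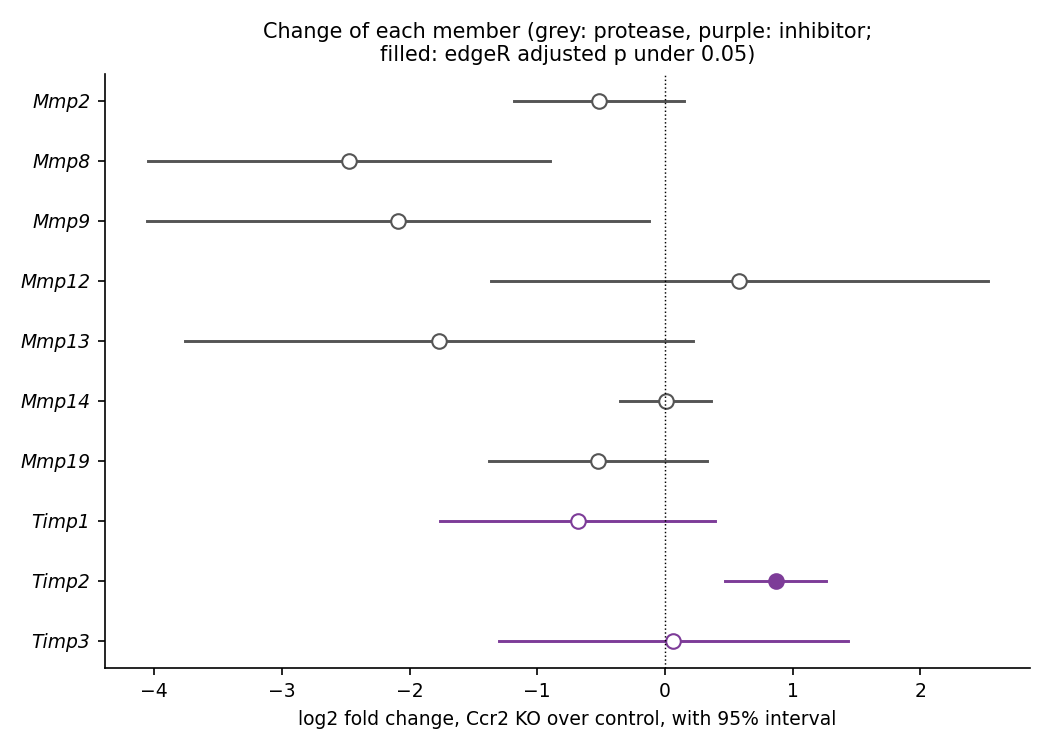
Fitted log2 fold change of each member, Ccr2 KO over control, as a point with its 95% interval (horizontal axis), and the vertical line marks 0. The interval of Timp2, 0.47 to 1.26, is the one that passed the adjusted test, and those of Mmp8 and Mmp9 lie below 0 without passing it.

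Divided by exon length, the levels can be compared roughly between genes, in CPM per kilobase of exon. The length is that of all annotated exons of a gene combined, 7237 bases for Mmp12 and 888 for Timp1. Where it exceeds the length of the transcripts present, the value is too low, so the order below is approximate. Timp2 was the most abundant member in both groups, at 345 in Ccr2 KO and 189 in control libraries, followed by Mmp14 at 109 in each. In both groups the library ranges of Timp2 and Mmp14 did not overlap, while those of every other pair of neighbours in the order did. Timp1 came next at 36.5 in Ccr2 KO and 58.7 in control libraries, then Mmp2 at 16.6 and 23.7 and Mmp19 at 12.4 and 17.8. In Ccr2 KO libraries Mmp12 (8.84), Timp3 (8.64), Mmp13 (4.76), Mmp9 (1.89) and Mmp8 (0.955) followed, and in control libraries Mmp13 (16.2), Timp3 (8.26), Mmp9 (8.05), Mmp12 (5.90) and Mmp8 (5.31).

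Summed over the 7 proteases, the level per kilobase was 154 ± 42.5 in Ccr2 KO and 186 ± 53.6 in control libraries, and summed over the 3 inhibitors it was 390.3 ± 92.2 in Ccr2 KO and 256 ± 58.7 in control libraries (SD, n = 5 each). The inhibitor sum divided by the protease sum was 1.88, 2.68, 2.54, 3.03 and 2.78 in Ccr2 KO libraries 1 to 5 and 1.35, 0.958, 1.59, 1.55 and 1.69 in control libraries 1 to 5, and the groups did not overlap. Timp2 made up 89.3% of the inhibitor sum in Ccr2 KO and 74.5% in control libraries, and Mmp14 made up 71.6% of the protease sum in Ccr2 KO and 61.3% in control libraries. These sums carry no test, and because Timp2 dominates the inhibitors they largely restate its difference.

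Protease and inhibitor were also compared within each library for 3 known binding pairs, as a difference of log2 CPM tested by an exact two-sided permutation test over all arrangements of the libraries, adjusted over the 3 ratios. Mmp2 stood at 2.82%, 3.92%, 5.68%, 2.96% and 5.42% of the CPM of Timp2 in Ccr2 KO libraries 1 to 5 and at 18.8%, 14.8%, 6.46%, 10.1% and 6.94% in control libraries 1 to 5. All 5 Ccr2 KO libraries lay below the lowest control library. The log2 ratio was -4.65 ± 0.47 in Ccr2 KO and -3.26 ± 0.67 in control libraries (SD, n = 5 each), a difference of -1.39 with an exact permutation p of 0.00794, the smallest this design can give, and an adjusted p of 0.0238. Timp2, at 0.87, supplied the larger part of this difference, and Mmp2, at -0.52, did not pass on its own, so the ratio is not separate evidence on Mmp2.

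Mmp14 stood at 70.7%, 46.8%, 41.5%, 42.1% and 42.9% of the CPM of Timp2 in Ccr2 KO libraries 1 to 5 and at 107%, 119%, 87.9%, 85.1% and 59.7% in control libraries 1 to 5. Ccr2 KO library 1 was above control library 5, and the other 4 Ccr2 KO libraries were below every control library. The log2 ratio was -1.07 ± 0.32 in Ccr2 KO and -0.16 ± 0.38 in control libraries (SD, n = 5 each), a difference of -0.90 (exact permutation p = 0.0159, adjusted p = 0.0238). Since Mmp14 had nearly equal means in the groups, this ratio carries the Timp2 difference again and is not separate from it.

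The third ratio, Mmp9 to Timp1, was -2.46 ± 1.31 in Ccr2 KO and -1.62 ± 1.60 in control libraries on the log2 scale (SD, n = 5 each). The difference of -0.83 did not pass (exact permutation p = 0.389, adjusted p = 0.389). With each control pair summed, the Mmp2 to Timp2 difference was -1.32 (exact permutation p = 0.0179, the smallest that 5 against 3 libraries can give) and the Mmp14 to Timp2 difference was -0.81 (exact permutation p = 0.0357). The adjusted p of both was then 0.0536.

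**Figure D3:**
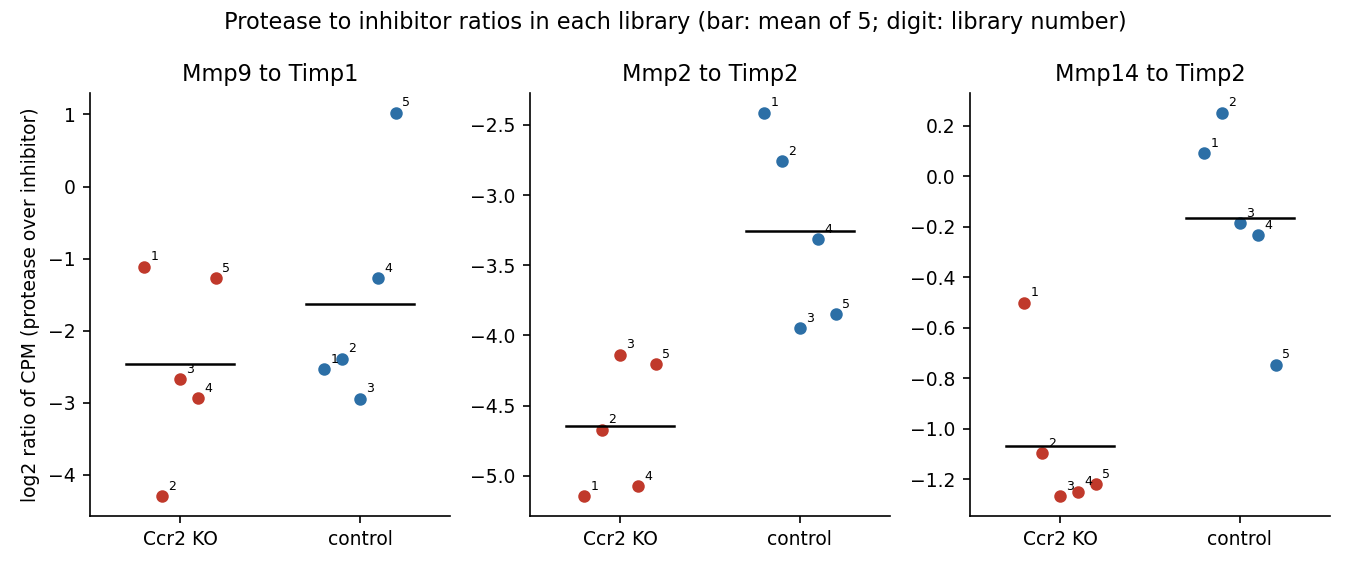
Log2 ratio of protease to inhibitor CPM in each library for the 3 binding pairs, with Ccr2 KO libraries left of control libraries, 1 point per library and a bar at the group mean. The Mmp2 to Timp2 points of the groups do not overlap, and those of Mmp9 to Timp1 do.

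Within each genotype the same few libraries were high or low for many members. Control library 1 was among the 3 highest of the 10 libraries for 9 members, and so was control library 2, while Ccr2 KO library 3 was among them for 6. At the other end, Ccr2 KO library 2 was among the 3 lowest for 8 members, Ccr2 KO library 5 for 7 and control library 3 for 6. Control libraries 3 and 4 were among the 3 highest for no member.

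Fibroblast markers moved with some of these library differences and not with others. The 9 markers (Col1a1, Col1a2, Col3a1, Dcn, Lum, Pdgfra, Mfap5, Dpt and Fap) summed to 557, 258, 3419, 607 and 444 CPM in Ccr2 KO libraries 1 to 5 and to 1820.3, 1011, 641, 895 and 2159 CPM in control libraries 1 to 5. Ccr2 KO library 3 was the highest in this sum, as it was in Mmp12 and Timp3, and Ccr2 KO library 2 the lowest. Control library 5 was second highest in the sum but not among the 3 highest for Mmp2, Mmp12, Mmp13, Timp1 or Timp3. Control library 2 was among those 3 for each of these members, with a lower sum than control libraries 1 and 5. None of the 9 markers passed the test between genotypes, and none was at 0 in every library. Their part in the values of Mmp2, Mmp12, Timp1 and Timp3 was not tested.

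Markers of the remaining cell types are given as summed levels. The 7 markers of classical monocytes, the cells that depend on Ccr2, summed to 959 to 2229 CPM in Ccr2 KO and 1438 to 3062 CPM in control libraries. The largest part of this sum was F13a1, at 1451 ± 511 CPM in Ccr2 KO and 981 ± 387 CPM in control libraries (SD, n = 5 each). F13a1 ran against the rest of its list, with a log2 fold change of 0.56 (edgeR adjusted p = 0.380) beside a list median of -2.55. By the same edgeR test 4 of these 7 markers fell, Chil3, Plac8 and Ly6c2 among them. Among the smooth muscle markers Tagln fell. The 5 endothelial markers summed to 24.5 to 38.7 CPM in Ccr2 KO and 36.5 to 87.6 CPM in control libraries, the 6 pericyte and smooth muscle markers to 10.4 to 68.3 and 24.2 to 84.8 CPM, and the 6 dendritic cell markers to 4.19 to 9.20 and 7.74 to 21.7 CPM. The 7 melanoma markers summed to 29.8 to 58.4 CPM in Ccr2 KO and 32.8 to 56.8 CPM in control libraries, with Mlana, Dct, Tyr and Tyrp1 at 0 in some libraries. The 7 T and NK cell markers summed to 87.5 to 199 CPM in Ccr2 KO and 68.1 to 136 CPM in control libraries, with Klrb1c at 0 in some, but most of that sum was Cd4, which rose to 135 ± 35.1 CPM in Ccr2 KO libraries, against 61.6 ± 12.3 CPM in controls (SD, n = 5 each, edgeR adjusted p = 0.0223). Cd4 ran against the rest of its list, since the other 5 markers tested had negative log2 fold changes that did not pass, and the list's median was -1.03. In the macrophage list 1 of 8 markers passed the test, Cd68, a lysosomal glycoprotein, which rose to 1169 ± 115 CPM in Ccr2 KO libraries, against 829.9 ± 49.4 CPM in controls (SD, n = 5 each, edgeR adjusted p = 0.0260).

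**Figure D4:**
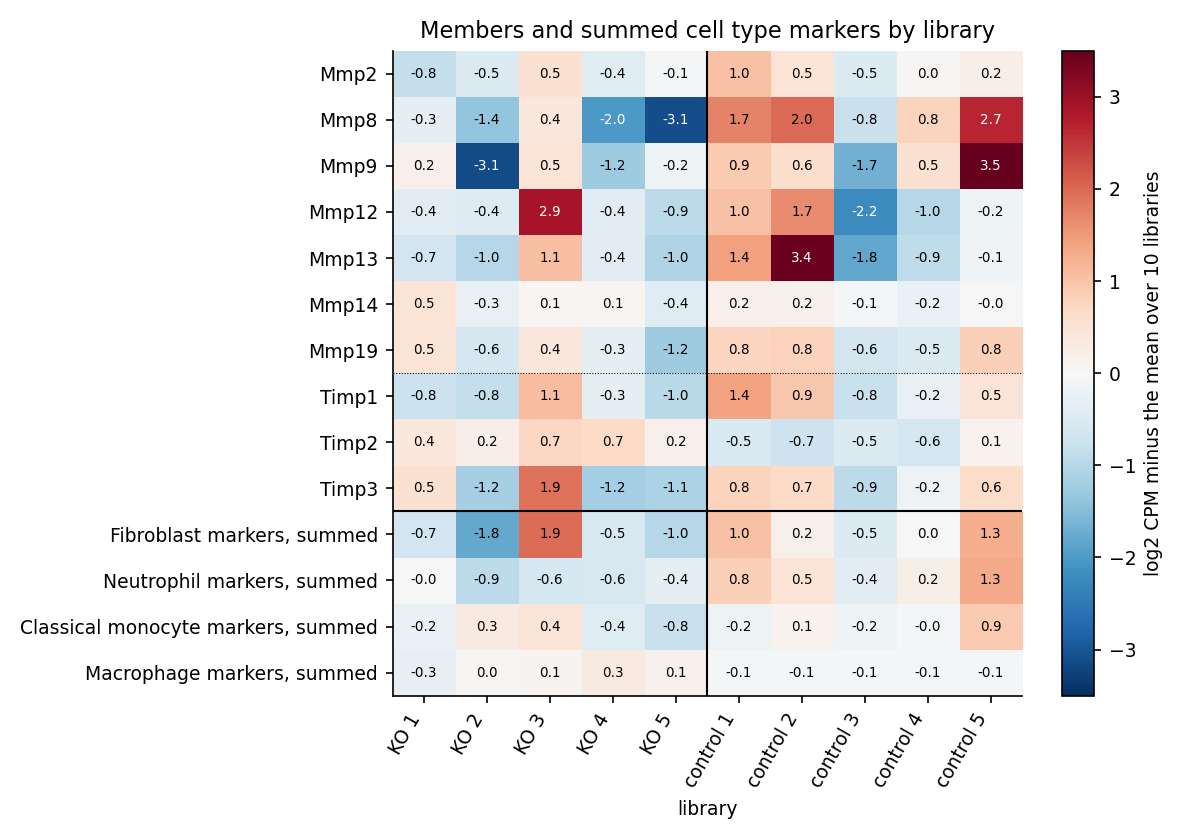
Log2 CPM of each member and of the summed fibroblast, neutrophil, classical monocyte and macrophage markers in every library, as the difference from the row's mean over the 10 libraries (colour scale), with Ccr2 KO libraries left of control libraries. Ccr2 KO library 3 is high for Mmp12, Timp3 and the fibroblast sum, and control library 5 for Mmp9, Mmp8 and the neutrophil sum.

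For each member, the genes with the most similar pattern were sought by Pearson's r of log2 CPM over the 10 libraries, among 10877 genes whose mean reached 2 CPM. These values describe likeness and carry no test, since all points share the same libraries. Timp2 was most like Serpinb6a (0.981), an intracellular protease inhibitor, then Syt3 (0.974) and Adam15 (0.970). Serpinb6a was at 322 ± 64.0 CPM in Ccr2 KO and 161 ± 46.7 CPM in control libraries (SD, n = 5 each).

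Mmp8 was most like Ltf (0.977) and Dgat2 (0.976), then Lcn2 (0.973), where Ltf and Lcn2 encode neutrophil granule proteins. Mmp2 was most like Sparc (0.949), Serpinh1 (0.947), the collagen chaperone, and Col15a1 (0.941). Timp3 was most like Cx3cl1 (0.983), Slit2 (0.981) and Il1r1 (0.977), and Timp1 was most like Dbn1 (0.976), Bmp1 (0.974) and Abhd2 (0.961). Mmp19 was most like Fcrlb (0.976), Trip10 (0.969) and Tle3 (0.967), and Mmp12 was most like Sema3g (0.965), Ank3 (0.941) and Ndfip1 (0.937). The closest genes were less close for Mmp9 (Ctsk, 0.921), Mmp13 (Socs2, 0.917) and Mmp14 (Heatr1, 0.912).

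Genes that act around the members were taken as 8 lists of 132 genes in all, of which 114 were tested. By edgeR none of the 114 passed the threshold in either direction, 26 had an unadjusted p under 0.05, and the lowest adjusted p was 0.0592. DESeq2 called 11 of them and limma-voom 4, in runs that called 5.70% and 3.10% of all tested genes. The lists are given below by role.

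Of 16 other metalloproteinases 9 were tested, with a median log2 fold change of -0.43. Mmp23 was at 0.144 ± 0.104 CPM in Ccr2 KO and 0.324 ± 0.0919 CPM in control libraries, and Mmp27 at 3.44 ± 0.768 CPM in Ccr2 KO and 2.53 ± 0.681 CPM in control libraries (SD, n = 5 each). Mmp1a, Mmp1b, Mmp7, Mmp10, Mmp20, Mmp21 and Mmp24 did not pass the filter on low counts. Of 11 other inhibitors 8 were tested, with a median of -0.01. Slpi, an inhibitor of neutrophil elastase, was at 5.25 ± 4.60 CPM in Ccr2 KO and 18.8 ± 12.7 CPM in control libraries (SD, n = 5 each, edgeR adjusted p = 0.204).

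Of 14 activators of proenzymes 9 were tested, with a median of 0.06. Plau, the urokinase that turns plasminogen into plasmin, was at 388 ± 89.3 CPM in Ccr2 KO and 227 ± 57.1 CPM in control libraries (SD, n = 5 each), and its log2 fold change was 0.77 (edgeR adjusted p = 0.103). Prtn3, a serine protease of neutrophil granules, had a log2 fold change of -1.98 (edgeR adjusted p = 0.118). Of 22 Adam and Adamts proteases 19 were tested, with a median of -0.06, and Adam33 was at 7.55 ± 4.62 CPM in Ccr2 KO and 2.48 ± 0.853 CPM in control libraries (SD, n = 5 each, edgeR adjusted p = 0.0748).

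All 16 cathepsins and other matrix-degrading enzymes were tested, with a median of 0.15. Hyal1, a lysosomal hyaluronidase, was the gene with the lowest adjusted p of the lists, at 8.18 ± 2.35 CPM in Ccr2 KO and 4.37 ± 0.531 CPM in control libraries (SD, n = 5 each), and its log2 fold change was 0.90 (edgeR adjusted p = 0.0592). Ctse, cathepsin E, went the other way, at 3.06 ± 1.14 CPM in Ccr2 KO and 6.07 ± 1.55 CPM in control libraries (SD, n = 5 each). Its log2 fold change was -0.99 (edgeR adjusted p = 0.127). Ctsd, cathepsin D, was at 2335 ± 153 CPM in Ccr2 KO and 1649 ± 456 CPM in control libraries (SD, n = 5 each, edgeR adjusted p = 0.164).

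All 20 matrix substrates were tested, and 18 had a negative log2 fold change, with a median of -0.44. Col5a2, a fibrillar collagen chain, was at 21.2 ± 5.11 CPM in Ccr2 KO and 43.1 ± 13.5 CPM in control libraries (SD, n = 5 each, edgeR adjusted p = 0.0687), and Eln, elastin, had a log2 fold change of -1.76 (adjusted p = 0.115). Col1a1, Col1a2 and Col3a1 are in this list and among the fibroblast markers, and each was highest in Ccr2 KO library 3.

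Of 12 surface partners and clearance receptors all were tested, with a median of 0.23. Lrp1, the endocytic receptor that clears protease and inhibitor complexes, was at 2346 ± 267 CPM in Ccr2 KO and 1609 ± 352 CPM in control libraries (SD, n = 5 each), and its log2 fold change was 0.54 (edgeR adjusted p = 0.106). Cd74, the invariant chain of MHC class II, was at 1340.5 ± 967 CPM in Ccr2 KO and 3572 ± 699 CPM in control libraries (SD, n = 5 each, edgeR adjusted p = 0.210).

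The 21 transcription factors and cytokines known to act on metalloproteinase promoters were all tested, 15 with a negative log2 fold change, with a median of -0.64. Junb, a partner in AP-1, was at 846 ± 421 CPM in Ccr2 KO and 1638 ± 628 CPM in control libraries (SD, n = 5 each, edgeR adjusted p = 0.239). Osm, the cytokine oncostatin M, was at 91.6 ± 65.4 CPM in Ccr2 KO and 250.5 ± 129.9 CPM in control libraries (SD, n = 5 each), and its groups did not overlap, but it did not pass the test (edgeR adjusted p = 0.268). Runx2 was at 5.97 ± 0.879 CPM in Ccr2 KO and 10.8 ± 4.38 CPM in control libraries (SD, n = 5 each, edgeR adjusted p = 0.148).

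**Figure D5:**
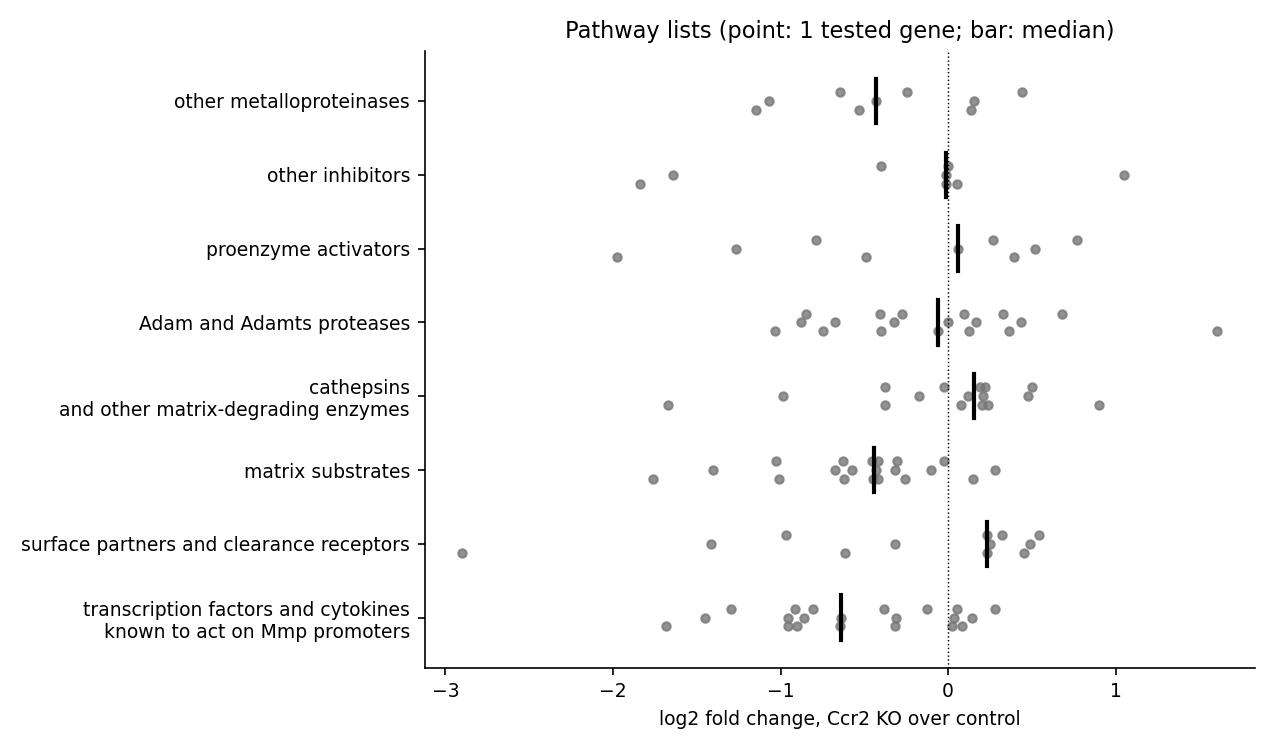
Log2 fold change, Ccr2 KO over control, of every tested gene in the 8 lists (1 point per gene, horizontal axis), with a bar at each list's median. List medians run from -0.64 for transcription factors and cytokines to 0.23 for surface partners, and none of the 114 list genes passed the threshold.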

How the data were processed

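The members and gene lists were chosen with earlier results of these data known. The authors deposited unnormalized whole-number counts of reads for each gene, from directional libraries of polyadenylated RNA, per the labels. The submitters' processing notes name STAR and the GRCm39 build, without a version, and the gene annotation is likewise not given in the sources used here. Reverse-strand counts were used, since 96.2% to 96.5% of strand-assigned counts fell in it. Rows for unmapped (6.87% to 8.07% of reads), multimapping, ambiguous and unassigned reads were left out. A combined table with 10 value columns that carry no sample names was not used.

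Genes were matched by symbol, which 52083 of 55359 identifiers had. They were filtered with filterByExpr (minimum count 10), scaled by TMM and tested with edgeR 4.0.16 in R 4.3.3, Ccr2 KO over control, with Benjamini-Hochberg adjustment over 14374 genes. Intervals are 95% and use the fit's degrees of freedom. Because no label ties a library to an animal, the p-values cover the spread among these 10 libraries, and that spread may be technical. Ratios used log2 CPM with a prior count of 2. Exon lengths came from GENCODE M21 on GRCm38 and promoter windows (250 bases before to 50 after a start) from RefSeq on GRCm38.p6, not the build of the counts, and 7 of the 10 members had a window. DESeq2 1.42.0, limma-voom 3.58.1, other scalings, filters, the unstranded column, a replicate block and left-out or summed libraries were the alternatives, and counts over the lists and their genes were added after the data were seen. The edgeR step was tested on simulated data.

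The genes named were every member, Ccr2, 2 or 3 genes of the smallest p in each list, the markers with the highest level or at 0, and up to 3 genes most alike in pattern. Cd68, Cd177, Tagln, Cd4, Plac8 and Ly6c2 were named because they passed the test, and Cep295nl, Syn3 and Tmem198b because they overlap members, all after values were seen. Some genes this rule would name are left out. Figures were drawn with matplotlib.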

Additional observations from a re-analysis of the deposited data

Results flagged for a closer look

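In groups of 5 libraries a value was listed when its gap to the nearest other library was more than 0.71 of the group's range. This was applied to both groups for the members and the 3 ratios, 26 groups in all, of which 7 were listed. Chance lists about 1 in 20 groups when values are normally distributed. The members' values are skewed CPM from the same libraries, so the rate of chance listings here is not known.

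Ccr2 KO library 3 was the one set apart for Mmp12, at 232 CPM with the next Ccr2 KO library at 24.1, for Mmp13, at 29.7 with the next at 11.0, and for Timp1, at 75.0 with the next at 28.1. Its fibroblast markers summed to 3419 CPM, beside 258 to 607 CPM in the other Ccr2 KO libraries, and their part in these values was not tested.

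Among controls, library 2 was set apart for Mmp13, at 154 CPM with the next at 38.5. Control library 5 was set apart for Mmp9, at 98.5 CPM with the next at 16.1, and for Timp2, at 1069.6 CPM with the next at 695. Without it the Mmp9 log2 fold change was -0.70 and that of Timp2 was 1.05.

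Ccr2 KO library 1 was set apart for the log2 ratio of Mmp14 to Timp2, at -0.50 with the next at -1.10.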

How the results depend on the processing

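The count of genes called over all genes was 203 in the fit reported, 820 with DESeq2, 446 with limma-voom, 29 with each control pair summed, 8 with Ccr2 KO libraries 4 and 5 also summed, 50 without Ccr2 KO libraries 4 and 5, and 62 to 267 with 1 library left out. The count over the 10 members was 1, against 2 with DESeq2 (Timp2 and Mmp8), 0 in those 3 summed or reduced fits, and 0 to 1 with 1 library left out. Over the pathway lists it was 0, against 1 without a composition factor (Hyal1), 11 with DESeq2, 4 with limma-voom and 0 to 4 with 1 library left out. The cause of these differences was not tested.

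The difference in log2 ratio of Mmp2 to Timp2 was -1.32 with control pairs summed and -1.40 without Ccr2 KO libraries 4 and 5, and that of Mmp14 to Timp2 was -0.81 and -0.79, with an adjusted exact permutation p of 0.0536 for the summed pairs and 0.107 without the 2 libraries. With 1 library left out they ran from -1.56 to -1.18 and from -1.05 to -0.80, and Mmp9 to Timp1 from -1.17 to -0.17.

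Whether library numbers pair the samples could not be settled. The correlations of same-numbered deviations were 0.34, 0.08, -0.53, 0.18 and -0.22, and differently numbered libraries were not compared in this way. With the replicate block 55 genes and 0 members passed, Timp2 had a log2 fold change of 0.88 (edgeR adjusted p = 0.143), and the ratio differences of Mmp2 and Mmp14 to Timp2 were -1.39 and -0.90 with an exact sign-flip permutation p of 0.0625, the smallest it allows.

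Direction turned for 3 members, none called. Mmp14 was at -0.15 with limma-voom, -0.022 with the replicate block and -0.14 to 0.10 with 1 library left out. Timp3 was at -0.64, -0.57 and -0.84 to 0.30, and Mmp12 at -0.14 with the block and -0.96 to 1.16 with 1 library left out. The other 7 members kept their direction in every fit.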
